A study of Mus musculus with 9 samples.

Results

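Dbp, Tef, Hlf, Nfil3, Bhlhe40, Bhlhe41 and Ciart are transcription factors and repressors through which the circadian clock acts on other genes. These 7 genes were chosen by symbol, all 7 were found among the 30128 genes of the deposited expression table, and all 7 passed the filter on low values. The table covers left ventricular tissue of 9 mouse libraries in 3 groups of 3. Control mice were wild type, and no virus is given for them in the labels. The second group were db/db mice, obese and diabetic through a defect of the leptin receptor gene Lepr, treated with an adeno-associated virus of serotype 9 labelled null (null virus), whose promoter the labels do not state. The third group were db/db mice treated with a virus of serotype 9 in which the troponin T promoter of cardiomyocytes drives USP28, an enzyme that removes ubiquitin (USP28 virus). The study asked what raising USP28 does to the diabetic heart. Genotype and virus change together between control and null virus, so they cannot be told apart there. The sources used here do not give strain, age, sex or the time of day at which tissue was taken. They do not say whether each library is a different mouse either, so the p-values describe the spread between libraries, which may be technical.

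The clock is a loop of transcription. The proteins of Arntl (BMAL1) and Clock bind E-box elements and switch on the Per, Cry and Nr1d genes together with Dbp, Tef, Hlf, Bhlhe40, Bhlhe41 and Ciart, and PER and CRY proteins then shut the pair down. Dbp, Tef and Hlf encode the PAR bZIP activators, which bind D-box elements, and Nfil3 encodes a bZIP repressor of the same elements. NR1D repressors act at RORE elements, through which they hold down Arntl and Nfil3. In the mouse heart, as in other tissues, these transcripts are known to rise and fall over the day, with Nfil3 roughly opposite to Dbp, and cardiomyocyte metabolism and excitability follow the clock.

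Sequences are shown first for matches to known elements near the starts of these genes, and whether they are bound was not tested. A RefSeq window (GRCm38.p6) from 250 bases before to 50 bases after a start site was at hand for 6 of the 7 genes, with 2 windows for Tef. Both strands were searched for the E-box CACGTG, the D-box TTATGTAA, the RORE core TAGGTCA and the cyclic AMP response element TGACGTCA, none of which overlaps another here. Ciart held 3 E-boxes, which began 116, 58 and 44 bases before its start, in the stretch chr3:95882261-95882350 on the minus strand. An E-box was in 7.15% of the 32851 windows, and 3 or more were in 0.0883%. Capitals mark the E-boxes.
Ciart: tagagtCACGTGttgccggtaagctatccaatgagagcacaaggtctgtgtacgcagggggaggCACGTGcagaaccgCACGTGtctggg

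Both Tef windows (chr15:81802534-81802563 and chr15:81811264-81811293, plus strand) and the Bhlhe41 window (chr6:145865556-145865585, minus strand) held 1 E-box each, shown with their surroundings to set beside Ciart. The stretches at the first Tef start and at Bhlhe41 overlap annotated exons, and that at the second Tef start does not.
Tef, first start: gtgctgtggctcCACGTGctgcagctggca
Tef, second start: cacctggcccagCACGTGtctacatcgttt
Bhlhe41: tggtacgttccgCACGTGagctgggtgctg

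Nfil3 held 1 RORE core, on the opposite strand of the gene (written TGACCTA here), 12 bases before its RefSeq start (chr13:52981033-52981062, minus strand). It was the only one of their windows with this core, against 2.61% of all windows, and Arntl held one too, 30 bases after one of its starts (chr7:113207530-113207559, plus strand). Both stretches overlap annotated exons, and that of Nfil3 lies within the gene span given below.
Nfil3: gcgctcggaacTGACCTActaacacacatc
Arntl: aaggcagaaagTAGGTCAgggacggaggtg

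Among the 6 genes searched Hlf alone held a cyclic AMP response element (1.79% of all windows), at chr11:90390908-90390937 on the minus strand. The Dbp window held none of the 4 motifs, and no window of the 6 genes held the D-box, which was in 0.938% of windows. It is shown as it stands in Per3, a clock gene with 2 D-boxes (chr4:151044852-151044881 and chr4:151044805-151044834, minus strand), a number reached by 0.0213% of windows.
Hlf: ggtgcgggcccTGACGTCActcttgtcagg
Per3, farther site: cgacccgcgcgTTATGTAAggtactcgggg
Per3, nearer site: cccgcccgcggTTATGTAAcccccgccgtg

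Expression is given as scaled RPKM, reads per kilobase of gene length relative to the depth of the library, after a further scaling between libraries, so that levels of different genes can be compared. Depth was 35970332 to 56497662 reads per library, and the least covered value of the 7 genes, Ciart in control replicate 2, rested on 61 reads. Cardiomyocyte markers such as Myh6 and Tnnt2 summed to 29800 to 43100 scaled RPKM, those of fibroblasts to 62.2 to 83.9 and those of macrophages to 6.33 to 13.1, while markers of T cells, NK cells and fat stayed under 0.71 in sum. The tissue is a mixture, so fewer cells of a type and less RNA per cell cannot be told apart. Usp28 itself was at 12.5 to 13.7 in control, 7.57 to 10.1 under null virus and 9.89 to 11.3 under USP28 virus, so that both db/db groups overlapped and lay below control. Whether reads of the virus were counted there is not stated. Lepr was at 0.0734 to 0.274 in all libraries, under the filter on low values, and does not check the genotype. Null-virus replicate 1 stood apart over all genes, with a mean absolute departure from its group mean of 0.334 (log2), where the other libraries had 0.144 to 0.214. Over all tested genes control replicate 1 lay above both other controls for 35.9% and below both for 36.6%. It lay outside their range for each of the 7 genes.

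Dbp, the first of the PAR bZIP activators, showed this most plainly. The gene lies on chromosome 7 at 45705088 to 45710203 (plus strand, GRCm38). Dbp stood at 14.6, 3.16 and 2.27 scaled RPKM in control replicates 1, 2 and 3, at 9.64, 2.52 and 4.16 under null virus, and at 14.6, 17.1 and 16.5 under USP28 virus. The 3 USP28-virus libraries were uniformly high, and control replicate 1 was at the level of the lowest of them while the other controls were low. The control libraries spanned 6.45-fold for Dbp, a span reached by 0.531% of the 13737 tested genes with no value of 0, whose median was 1.2-fold. With null virus, where replicate 1 was the highest, the span was 3.83-fold, reached by 2.75% of these genes. With USP28 virus the span was 1.17-fold, beside a median of 1.19-fold.

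Tef (chromosome 15, 81802421 to 81826861, plus strand) varied over a narrower range. It was at 6.46, 3.79 and 3.28 scaled RPKM in control, 5.21, 4.45 and 5.93 under null virus, and 8.38, 7.43 and 8.79 under USP28 virus. All 3 USP28-virus values lay above the other 6. Hlf (chromosome 11, 90336536 to 90390895, minus strand) was the least abundant of the 7, at 0.969, 0.535 and 0.499 in control, 0.562, 0.587 and 0.676 under null virus, and 1.16, 1.11 and 1.36 under USP28 virus. Its USP28-virus values again exceeded the other 6, and control replicate 1 came next.

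**Figure D1:**
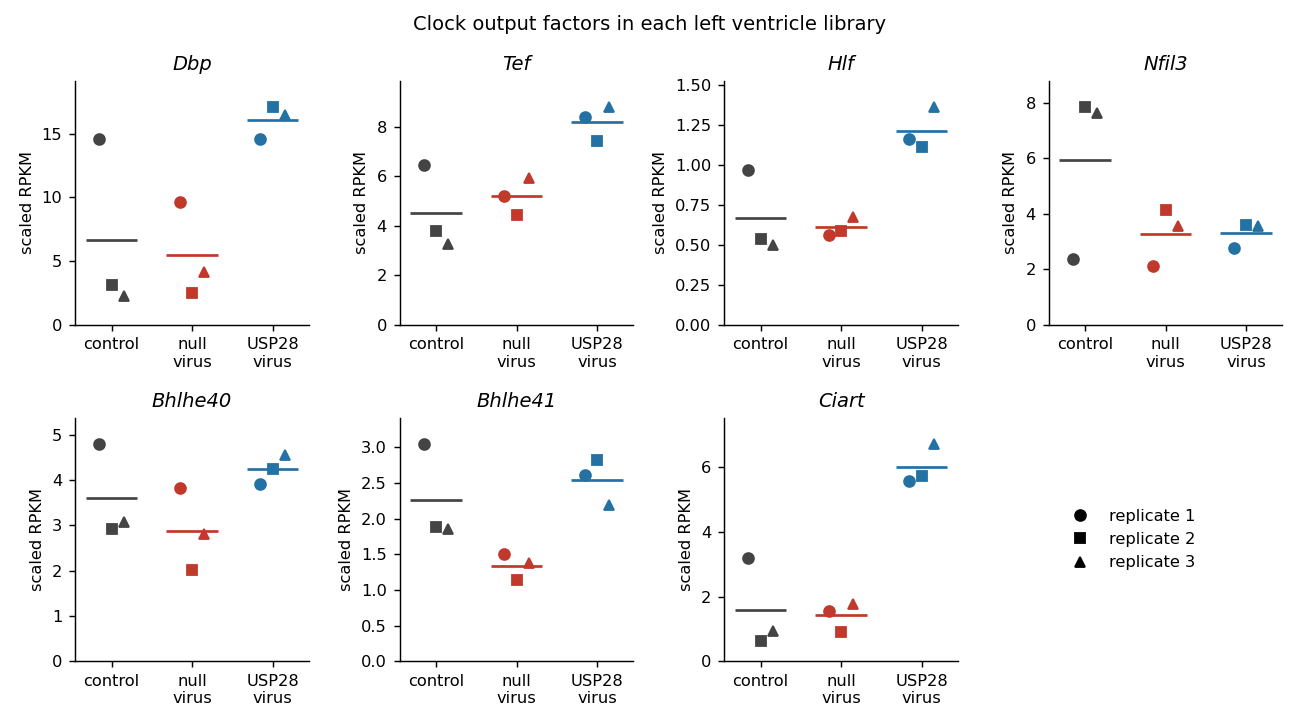
Scaled RPKM (vertical axis, from 0) of each gene in the 9 libraries, by group (horizontal axis). Points are libraries, with the shape giving the replicate, and lines are group means. Control replicate 1 lies above the other 2 controls for 6 of the 7 genes and below them for Nfil3.

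Nfil3, the repressor that opposes the PAR bZIP factors at D-boxes (chromosome 13, 52967209 to 52981073, minus strand), ran the other way. It was at 2.38, 7.84 and 7.62 scaled RPKM in control replicates 1, 2 and 3, at 2.12, 4.13 and 3.54 under null virus, and at 2.76, 3.58 and 3.56 under USP28 virus. The high libraries were control replicates 2 and 3, those with low Dbp, and control replicate 1 lay within the null-virus range and below the USP28-virus range. Relative to its own mean over the 9 libraries, Nfil3 was on the opposite side from Dbp in 8 of 9 libraries.

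The balance of activator and repressor can be read within each library as the ratio of Dbp to Nfil3, which does not depend on the scaling of that library apart from the pseudocount of 0.1. The ratio was 5.93, 0.411 and 0.307 in control, 4.39, 0.619 and 1.17 under null virus, and 5.15, 4.68 and 4.53 under USP28 virus. Dbp thus exceeded Nfil3 more than 4-fold in every USP28-virus library and in replicate 1 of both other groups, while control replicates 2 and 3 and null-virus replicate 2 had more Nfil3 than Dbp. On the log2 scale the mean was 2.26 ± 0.10 (SD, n = 3) with USP28 virus, 0.56 ± 1.44 with null virus and -0.14 ± 2.35 in control. The difference of USP28 virus from null virus was 1.70, and those groups did not overlap (exact two-sided permutation p = 0.1, the smallest that 3 against 3 allows). Against control it was 2.40 (exact permutation p = 0.4), and between null virus and control 0.70 (exact permutation p = 0.6), with overlapping groups in both cases. The latter difference became -0.09 without control replicate 3, and likewise without null-virus replicate 1.

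**Figure D2:**
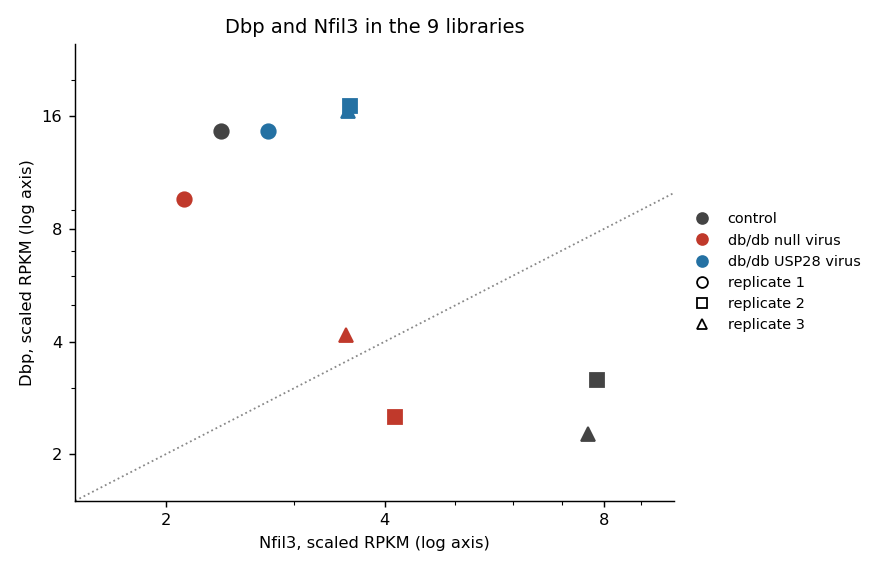
Dbp (vertical, log axis) against Nfil3 (horizontal, log axis) in scaled RPKM for each of the 9 libraries, with colour for the group, shape for the replicate and a dotted line where both levels are equal. The 3 USP28-virus libraries and replicate 1 of control and of null virus lie at the upper left with ratios of 4.39 to 5.93, and control replicates 2 and 3 lie at the lower right with ratios of 0.411 and 0.307.

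Both E-box repressors had their lowest mean with null virus. Bhlhe41 (DEC2; chromosome 6, 145858243 to 145865558, minus strand) was at 3.05, 1.89 and 1.86 scaled RPKM in control, 1.51, 1.14 and 1.38 under null virus, and 2.61, 2.82 and 2.19 under USP28 virus. Every null-virus library lay below every library of both other groups. Its paralog Bhlhe40 (DEC1; chromosome 6, 108660629 to 108666925, plus strand) was at 4.80, 2.92 and 3.07 in control, 3.83, 2.01 and 2.81 under null virus, and 3.92, 4.25 and 4.55 under USP28 virus, so that null virus and control overlapped. Bhlhe40 exceeded Bhlhe41 in all 9 libraries, with ratios of 1.48 to 2.44 once the pseudocount of 0.1 was added to both. The log2 of this ratio was 0.65 ± 0.05 in control, 1.01 ± 0.26 under null virus and 0.72 ± 0.26 under USP28 virus (n = 3 each). Null virus and control did not overlap in this ratio (difference 0.37, exact permutation p = 0.1), and the other comparisons gave differences of -0.29 (USP28 virus less null virus, exact permutation p = 0.3) and 0.08 (USP28 virus less control, exact permutation p = 1).

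Ciart, also called Chrono, encodes a repressor that binds BMAL1 (chromosome 3, 95878503 to 95882251, minus strand). It was at 3.21, 0.635 and 0.936 scaled RPKM in control, 1.57, 0.912 and 1.78 under null virus, and 5.59, 5.73 and 6.73 under USP28 virus. The lowest USP28-virus library was above the highest of all others, control replicate 1. Its control libraries spanned 5.06-fold, a span that 0.83% of tested genes reached. For the control span of Nfil3 this share was 2.15%, of Tef 7.02%, of Hlf 7.27%, of Bhlhe40 12.7% and of Bhlhe41 12.8%.

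The order of levels differed between the groups. With USP28 virus the means ran from Dbp (16.1 ± 1.31, SD, n = 3) to Tef (8.20 ± 0.698), Ciart (6.02 ± 0.623), Bhlhe40 (4.24 ± 0.317), Nfil3 (3.30 ± 0.471), Bhlhe41 (2.54 ± 0.318) and Hlf (1.21 ± 0.131), and of these neighbours only Nfil3 and Bhlhe41 overlapped. In control the order was Dbp (6.68 ± 6.89), Nfil3 (5.94 ± 3.09), Tef (4.51 ± 1.71), Bhlhe40 (3.6 ± 1.05), Bhlhe41 (2.27 ± 0.677), Ciart (1.59 ± 1.41) and Hlf (0.668 ± 0.262), and each pair of neighbours overlapped. With null virus it was Dbp (5.44 ± 3.73), Tef (5.20 ± 0.738), Nfil3 (3.26 ± 1.04), Bhlhe40 (2.88 ± 0.913), Ciart (1.42 ± 0.454), Bhlhe41 (1.34 ± 0.191) and Hlf (0.609 ± 0.0600). There Dbp and Tef, Nfil3 and Bhlhe40, and Ciart and Bhlhe41 overlapped. The order of means did not always hold within libraries. Dbp exceeded Nfil3 in 1 of 3 controls and Tef in 1 of 3 null-virus libraries, replicate 1 in both groups. Tef exceeded Bhlhe40, Bhlhe40 exceeded Bhlhe41 and Ciart exceeded Hlf in all 3 controls, although their ranges overlapped.

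Null virus against control compares db/db ventricle under a null vector with wild type. Bhlhe41 was lower with null virus, and the other 6 genes did not pass. Bhlhe41 differed by -0.68 on the log2 scale (SE 0.20, adjusted p = 0.042, limma with Benjamini-Hochberg adjustment over 14104 genes), a mean of 59.3% of control. By the same rule 12.0% of all tested genes were lower and 10.4% higher, and groups did not overlap for 21.4% lower and 20.1% higher, so that 1 of 7 lower is near the background. Nfil3 was at a log2 difference of -0.72 (SE 0.43, adjusted p = 0.26), Bhlhe40 at -0.32 (0.37), Tef at 0.25 (0.45), Ciart at 0.11 (0.89), Hlf at -0.07 (0.85) and Dbp at -0.02 (0.99), with adjusted p in brackets. The 95% interval for Dbp, -1.54 to 1.50, is wide on both sides of 0. The median over the 7 genes was -0.07, beside 0.015 over all tested genes.

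Control replicate 1 moved several of these values. Without it Nfil3 was lower with null virus (log2 -1.27, adjusted p = 0.02) and Tef higher (0.54, adjusted p = 0.049), Bhlhe41 no longer passed (-0.46, adjusted p = 0.089), and Dbp stood at 0.78 (adjusted p = 0.28). The call for Bhlhe41 was kept without null-virus replicate 1 (adjusted p = 0.03) and was lost without any other single library (adjusted p = 0.058 to 0.11).

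USP28 virus against null virus compares the db/db groups, which differ by label in what the virus carried. Ciart, Dbp, Hlf, Bhlhe41, Tef and Bhlhe40 had higher means with USP28 virus and no overlap with the null-virus libraries, but none passed the adjusted test. Ciart was at 423% of the null-virus mean (log2 2.05, SE 0.49, 95% interval 0.94 to 3.17, adjusted p = 0.1) and Dbp at 295% (log2 1.76, SE 0.67, 95% interval 0.24 to 3.27, adjusted p = 0.24). Hlf was at 199% (log2 0.89, adjusted p = 0.12), Bhlhe41 at 189% (0.87, adjusted p = 0.097), Tef at 158% (0.65, adjusted p = 0.21) and Bhlhe40 at 147% (0.58, adjusted p = 0.28). Nfil3 was at 101% (log2 0.06, 95% interval -0.93 to 1.04, adjusted p = 0.96).

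That is 0 of 7 past the test, where 0.34% of tested genes were higher and 0.213% lower. At an unadjusted p under 0.05 the 6 genes other than Nfil3 were higher, against 8.3% of tested genes, and the same 6 of 7 had groups that did not overlap, against 11.8% of tested genes higher and 11.6% lower. The median log2 difference over the 7 genes was 0.87, beside 0.005 over all tested genes. Limma voom on recovered reads passed Ciart alone (log2 2.12, adjusted p = 0.04), as did the limma fit without control replicate 1 (2.05, adjusted p = 0.049), and without null-virus replicate 1 Bhlhe41 alone passed (0.95, adjusted p = 0.041). Both comparisons above share the null-virus libraries.

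**Figure D3:**
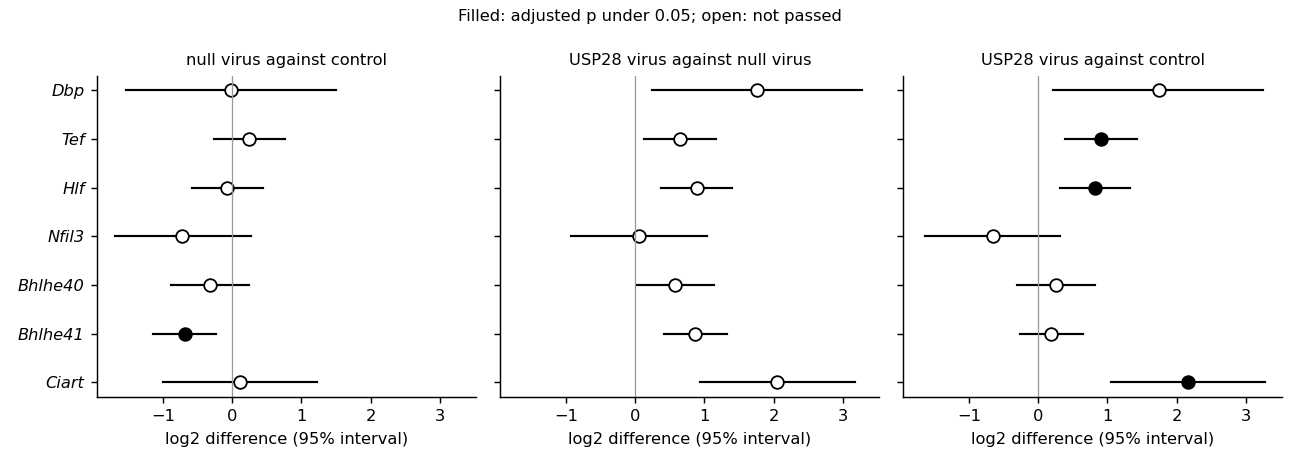
Log2 difference (horizontal axis) of each gene in the 3 comparisons, with 95% intervals from the limma fit. Filled points passed the adjusted test, namely Bhlhe41 on the left, none in the middle, and Tef, Hlf and Ciart on the right.

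The comparison of USP28 virus with control shows how far the treated db/db hearts stood from wild type. Genotype, virus and what the virus carried change together here, so they cannot be told apart. Ciart, Tef and Hlf were higher with USP28 virus. Ciart differed by 2.16 on the log2 scale (SE 0.49, adjusted p = 0.026), a mean of 378% of control. Tef differed by 0.91 (SE 0.23, adjusted p = 0.036) and Hlf by 0.82 (SE 0.22, adjusted p = 0.048). Of all tested genes 5.69% were higher and 6.24% lower, and groups did not overlap for 22.7% higher and 23.1% lower, against 3 of 7 higher on either rule. Dbp was at 240% of control (log2 1.74, SE 0.67, 95% interval 0.22 to 3.25, adjusted p = 0.13) and did not pass. Bhlhe40 (0.26, adjusted p = 0.52), Bhlhe41 (0.19, adjusted p = 0.59) and Nfil3 (-0.66, adjusted p = 0.35) did not pass either. The median over the 7 genes was 0.82, beside 0.01 over all tested genes.

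These calls changed with the libraries in the fit, and the cause was not tested. With 1 library left out the log2 difference of Ciart ranged from 1.72 to 2.80. Without control replicate 1, Ciart (log2 2.80, adjusted p = 0.0048), Dbp (2.54, adjusted p = 0.025), Tef (1.19, adjusted p = 0.0087) and Hlf (1.08, adjusted p = 0.014) were higher and Nfil3 was lower (-1.21, adjusted p = 0.037). Without control replicate 2 or 3, or any USP28-virus library, no gene of the 7 passed, with adjusted p of 0.069 to 0.098 for Ciart. Hlf was also lost without null-virus replicate 2 (adjusted p = 0.065) or 3 (0.06).

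**Figure D4:**
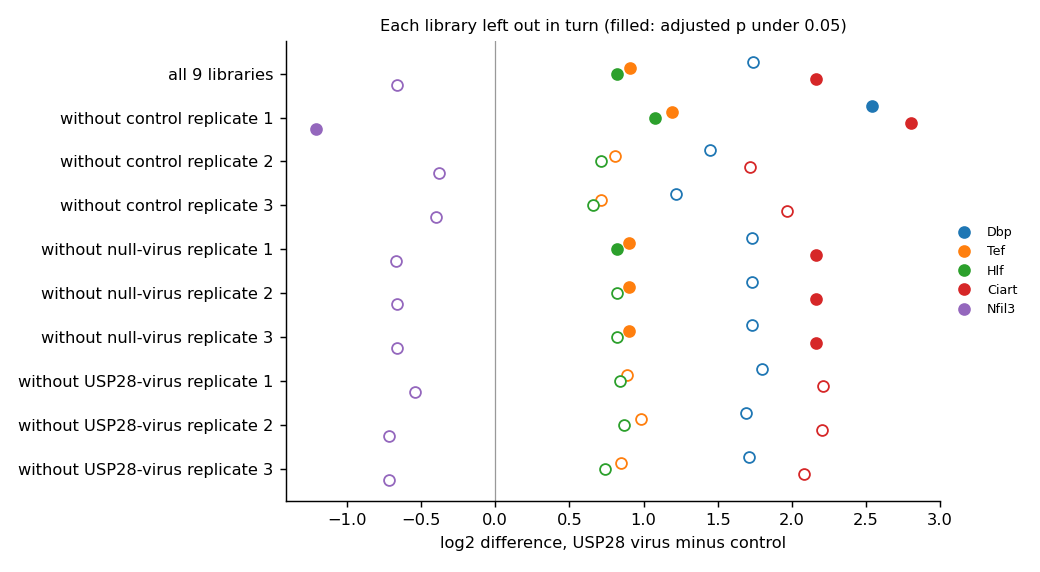
Log2 difference between USP28 virus and control (horizontal axis) for 5 genes with all 9 libraries and with each library left out (vertical axis). Filled points passed the adjusted test. Leaving out control replicate 1 moves Dbp from 1.74 to 2.54 and Nfil3 from -0.66 to -1.21, and all 5 genes then pass.

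Core clock genes differed among the same libraries. Arntl, the partner of Clock in the activator, was at 0.49, 1.94 and 2.02 scaled RPKM in control, 0.89, 1.06 and 0.47 under null virus, and 0.32, 0.33 and 0.25 under USP28 virus. It was highest in control replicates 2 and 3, where Dbp and Ciart were low, and lowest in the USP28-virus libraries, where they were high. Null-virus replicate 3 went against this, with Arntl as low as in control replicate 1 and Dbp at 4.16. Per3, which carries the D-boxes shown above, was at 1.67, 0.561 and 0.512 in control, 0.82, 0.87 and 1.45 under null virus, and 2.34, 2.13 and 2.37 under USP28 virus. The choice of Arntl and Per3 here followed a look at their values. Of the 18 genes of the core clock list 15 passed the filter, and all 15 lay outside the range of the other 2 controls in control replicate 1, with 6 above and 9 below, some by little (Csnk1e at 7.10 against 7.19 and 7.55). Of all tested genes 35.9% were above and 36.6% below in that library. The labels give no time of day for the tissue, and its part in these differences was not tested.

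Against control, 6 of 15 core clock genes were higher with null virus and 0 lower (median log2 0.43), beside 10.4% higher and 12.0% lower of all tested genes. Per1 (1.43, adjusted p = 0.036) and Per2 (1.36, adjusted p = 0.015), the light- and hormone-responsive repressors, were among them, as was Csnk1e, a kinase of PER proteins (0.68, adjusted p = 0.0013). The count was 5 higher and 2 lower without control replicate 1, 1 higher and 0 lower without control replicate 2 or 3, 2 higher without USP28-virus replicate 1 or 2, 3 higher and 1 lower without null-virus replicate 2, and 3 higher without USP28-virus replicate 3. Library totals alone also gave 3, the replicate block 3 higher and 1 lower, and no filter or a fit of the 2 groups alone 2 higher. With USP28 virus 7 were higher than control, among them Per1 (2.45), Per2 (1.91) and Per3 (1.41), and 1 was lower, Arntl (-1.78, adjusted p = 0.046), beside 5.69% and 6.24% of all tested genes. Leaving out 1 library gave 3 to 9 higher and 0 to 2 lower (0 lower without control replicate 2 or 3 or any USP28-virus library). The lowest counts of 3 came without control replicate 3 or USP28-virus replicate 1. Between USP28 and null virus 0 of 15 passed in limma, against 1 with limma voom on recovered reads, 1 with library totals alone and 1 without null-virus replicate 1. At an unadjusted p under 0.05 in limma 3 were higher and 1 lower, beside 1170 higher and 1186 lower of the 14104 tested genes. Nr1d1 came nearest to the threshold in limma (log2 0.56, adjusted p = 0.059). It was at 6.93 to 8.66 with null virus and 11.1 to 11.4 with USP28 virus, and against control it was higher with USP28 virus (0.40, adjusted p = 0.041). Per1 went from 3.21, 6.73 and 7.65 with null virus to 12.2, 11.3 and 10.4 (log2 1.02, adjusted p = 0.25).

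**Figure D5:**
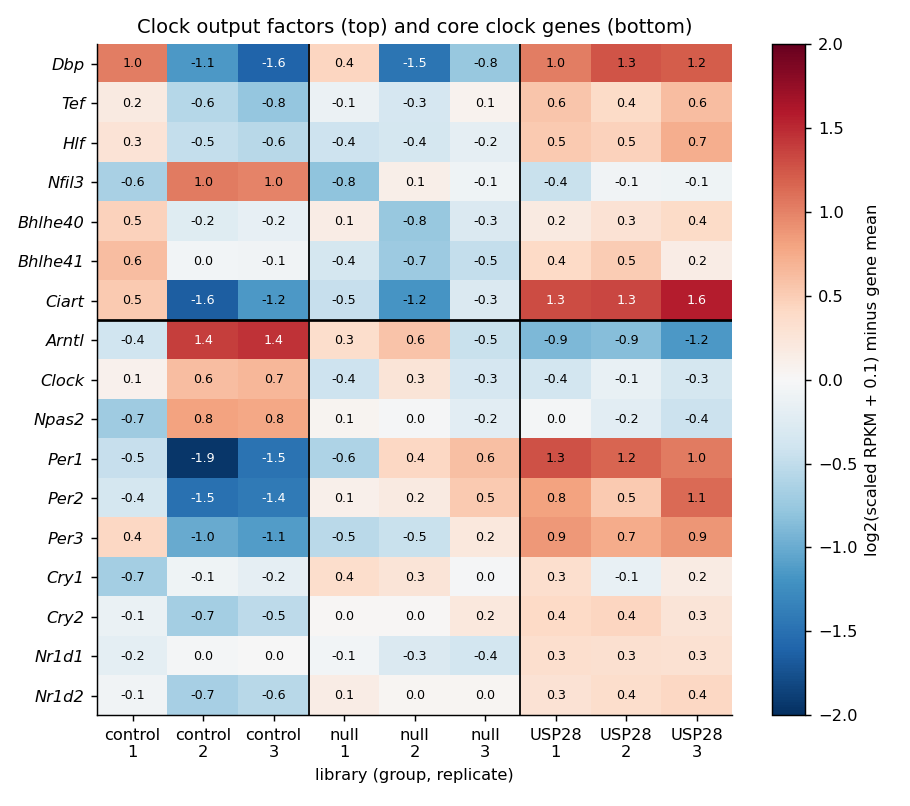
Log2(scaled RPKM + 0.1) less the mean of each gene over the 9 libraries, in colour and digits, for the 7 clock output factors (top rows) and 10 core clock genes (bottom rows) in each library (columns). Control replicates 2 and 3 are low in Dbp, Ciart, Per1 and Per3 and high in Nfil3 and Arntl, and the USP28-virus libraries are high in Dbp, Ciart and the Per genes and low in Arntl. Per2, Cry2 and Nr1d2 are also lower in control replicates 2 and 3 than in replicate 1. Cry1 and Nr1d1 go the other way, with scaled RPKM in control replicate 1 of 1.52 (Cry1, against 2.17 and 2.33) and 7.84 (Nr1d1, against 8.74 and 8.98).

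A list of genes known to cycle downstream of the clock held 13 genes, of which 12 were tested. Of these 6 were higher with null virus than in control and 0 lower (median log2 0.62), and 0 were higher and 2 lower with USP28 virus than with null virus. The shares of all tested genes were 10.4% higher and 12.0% lower in the first comparison, and 0.34% and 0.213% in the second. Pdk4, the kinase that turns off pyruvate dehydrogenase, was 2.22 higher with null virus (adjusted p = 0.00035) and 1.07 lower again with USP28 virus (log2 -1.07, adjusted p = 0.036). Cdkn1a, the cell cycle inhibitor p21, went the same way (1.25, then -1.10, adjusted p = 0.0015 and 0.027). With USP28 virus Pdk4 stayed higher than control (log2 1.16, adjusted p = 0.0053), and Cdkn1a did not pass against control (0.15, adjusted p = 0.55). Slc6a6, the taurine transporter (1.11), and Tsc22d3, the glucocorticoid-induced leucine zipper (1.04), were higher with null virus. The comparisons of null virus with control and of USP28 virus with null virus share the null-virus libraries. Without null-virus replicate 1 the counts were 9 higher and 1 lower, then 0 higher and 5 lower. Without any other single library no gene of this list passed between USP28 and null virus, and 4 to 6 were higher with null virus than in control. The 2 lower calls were also lost with library totals alone, with no filter, with the replicate block and when only the 2 groups were fitted.

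Targets of PAR bZIP factors described in liver, kidney or brain did not share 1 direction. Of 8 tested, 2 were higher and 2 lower with null virus than in control, beside 10.4% and 12.0% of all tested genes. Acot1 and Acot2, acyl-CoA thioesterases, were higher (log2 3.27 and 2.13), and their near-identical sequences make the split of reads between them uncertain. Ppara, the fatty acid receptor, was lower (-1.36, adjusted p = 0.0067), as was Alas1, the first enzyme of heme synthesis (-1.20, adjusted p = 0.00077). With USP28 virus 0 of 8 passed against null virus in limma, with 2 higher and 2 lower at an unadjusted p under 0.05. Of the 14104 tested genes 1170 were higher and 1186 lower at that unadjusted threshold. Limma voom on recovered reads also passed 0, and 1 was lower without null-virus replicate 1.

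Other factors of the same or related protein classes were also counted. Of all tested genes 10.4% were higher and 12.0% lower with null virus than in control. Of 19 tested bZIP factors 6 were higher and 0 lower, including Cebpd (1.29, adjusted p = 0.00087), Maff (1.18), Cebpb (1.02) and Mafk (0.67). With USP28 virus 0 were higher than with null virus and 1 was lower, Maff (-1.07, adjusted p = 0.041), beside 0.34% and 0.213% of all tested genes. That call was kept only without null-virus replicate 1 among the fits that left out a library, and it was lost with library totals alone, with no filter, with the replicate block, with no trend in the prior and when only the 2 groups were fitted. With null virus 4 to 8 bZIP factors were higher than in control when 1 library was left out. Of 8 repressors of the Hes, Hey and Id families 3 were higher with null virus, with 1 to 3 higher when 1 library was left out. They were Id3 and Id1 (1.02 each), partners that keep bHLH proteins off DNA, and the Notch target Hey1 (0.78), a bHLH repressor. Between USP28 and null virus 0 of the 8 passed in limma or in limma voom on recovered reads. At an unadjusted p under 0.05 in limma there were 0 higher and 1 lower, beside 1170 higher and 1186 lower of the 14104 tested genes.

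Likeness over the 9 libraries was measured as the mean absolute difference of log2 values centred on each gene's mean, among genes with a mean of at least 2 scaled RPKM. Hlf was closest to Tef (0.131, where the median gene was at 0.476), and next to Rnf207, a RING finger protein of cardiac muscle (0.157). Tef itself was about equally close to Rbmx, an RNA-binding protein (0.148), and Rnf207 (0.149) among genes of that level. Hlf, too low in level to be counted there, was closer to it (0.131). Rnf207 was at 17.9, 13.1 and 14.3 in control, 18.0, 16.6 and 16.4 under null virus, and 29.3, 26.3 and 27.5 under USP28 virus. Ciart was closest to Atcay (0.407) and then to Dbp (0.425), Nfil3 to Adam19, a membrane metalloprotease (0.193), and C3, the complement component (0.231), Bhlhe40 to Ccdc122 (0.117) and Irx4, a ventricular homeobox factor (0.137), and Bhlhe41 to Ppic (0.172) and Fam69b (0.178). Adam19 shared with Nfil3 the high values of control replicates 2 and 3, at 0.96, 4.69 and 3.78 in control against 1.27 to 1.80 in the db/db libraries.

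Dbp was closest to Sphk2, sphingosine kinase 2 (0.285, where the median gene was at 1.11). Sphk2 is the neighbour on the opposite strand, and 539 of its exonic bases lie on exons of Dbp, 18.0% of the length of Dbp. It was at 6.91, 2.25 and 1.73 in control, 5.36, 1.95 and 2.65 under null virus, and 7.10, 7.98 and 7.39 under USP28 virus. Bhlhe41 likewise shares 1280 exonic bases (19.0%) with Gm43909 on the opposite strand. Means of Gm43909 were 2.66 in control, 1.50 under null virus and 2.86 under USP28 virus, beside 2.27, 1.34 and 2.54 for Bhlhe41. The libraries were directional per the labels, but the sources used here do not state whether counting used strand, so reads over these shared bases may belong to either gene. The second closest gene to Dbp, Atcayos (0.351), is named as the antisense transcript of Atcay, which stood closest to Ciart.

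Markers of other cell types and tissues differed between some of these libraries. The 5 endothelial markers summed to 76.0 to 87.0 under USP28 virus, 61.8 to 79.9 under null virus and 56.7 to 67.7 in control. The 4 markers of smooth muscle and pericytes summed to 192 to 230 under USP28 virus, 144 to 208 under null virus and 144 to 171 in control. The 5 macrophage markers summed to 7.65 to 9.07 under USP28 virus, 6.33 to 8.18 under null virus and 9.7 to 13.1 in control. USP28 virus and control thus did not overlap in any of these 3 sums, but some single markers did overlap. Kdr was at 13.3 to 20.8 in control and 14.9 to 17.2 under USP28 virus, and Myh11, Cnn1, Csf1r and Adgre1 overlapped too. The 3 skeletal muscle markers summed to 11.3 to 14.6 in control, 5.36 to 9.08 under null virus and 7.17 to 9.04 under USP28 virus. Of these, Tnnt3 went the other way, at 0.619 to 0.698 in control and 0.825 to 1.14 under USP28 virus. Markers of blood (Hba-a1, Hbb-bs and Alas2) summed to 117, 447 and 227 scaled RPKM in control replicates 1, 2 and 3, 110 to 172 under null virus and 93.3 to 194 under USP28 virus, so that the controls with low Dbp held the most. Markers of atrium (Myl7, Sln and Myl4) summed to 146 in USP28-virus replicate 1 and to 0.24 to 8.37 in the other 8 libraries, with Sln at 0 in 7 of those 8. The part of these in the results was not tested. Without USP28-virus replicate 1 the log2 difference from null virus was 1.82 for Dbp and 2.10 for Ciart, against 1.76 and 2.05 with it.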

How the data were processed

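Left ventricular RNA of 9 libraries was analysed. Per the labels' protocols, polyadenylated RNA was made into directional libraries and read in pairs on an Illumina NovaSeq. The submitters' processing notes name HISAT2 and DESeq2, with no version or role, and the human build GRCh38, whereas symbols and positions in the file are mouse and match GENCODE M21 on GRCm38 for 6 of the 7 genes (not Tef). The sources used here name no counting program. The authors deposited RPKM for 30128 genes with gene length beside it. Dividing value times length by the size of 1 read in that library gave whole reads for 99.98% of values above 0 (tolerance 0.01 reads), which gave reads and depths. All values of the 7 genes were whole.

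RPKM was scaled by a trimmed mean of log ratios (30% of ratios and 5% of levels trimmed, over tested genes). Log2(scaled RPKM + 0.1) of the 14104 genes reaching an RPKM of 0.5 in 3 or more libraries was fitted in limma 3.58.1 (R 4.3.3; trended, robust prior) with 3 groups and no covariate, and each comparison had its own Benjamini-Hochberg adjustment, with 0.05 as threshold. Fold changes on this scale understate low genes. Libraries of a group differed beyond sampling noise (chi-square per degree of freedom 20.8 to 160), so none was counted as a repeat. Alternatives were other scalings, filters, pseudocounts and priors, fits of 2 groups, a replicate block, limma voom on recovered reads, and each library left out. The 7 genes, the lists and the rules were chosen with earlier results of these data known. Named were the 7 genes, from each list up to 4 genes per direction that passed in either comparison with null virus (largest difference first, or the 4 highest in level where none passed), and the 2 closest genes of each member (without gene models and pseudogenes). One gene that this rule names is not reported here. Core clock genes beyond these were chosen after their values were seen. Figures used matplotlib 3.10.9 in Python 3.11.15.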

Additional observations from a re-analysis of the deposited data

How the results depend on the processing

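Over the alternatives, 349 of 399 values of single genes kept their direction and side of the threshold, 33 no longer passed, 7 newly passed and 10 changed sign. The sign changes arose with 1 library left out and in differences that had not passed. With null virus against control Dbp ranged from -0.54 to 0.78, Hlf from -0.22 to 0.19 and Ciart from -0.33 to 0.75, and with USP28 virus against null virus Nfil3 ranged from -0.23 to 0.24, on the log2 scale. Values under the alternatives that leave out 1 library are given as ranges.

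For null virus against control 3154 genes passed, against 2090 with no filter, 1693 in a fit of the 2 groups alone and 1441 to 4473 with 1 library left out. Of the 7 genes 1 passed, against 0 with no filter, 0 in the fit of 2 groups and 0 to 2 with 1 left out. For USP28 virus against null virus 78 passed (61.5% higher), against 31 with library totals alone (87.1% higher), 10 with no filter, 190 with limma voom, 0 in the fit of 2 groups and 0 to 948 with 1 left out. Of the 7 genes 0 passed, against 1 with limma voom and 0 to 1 with 1 left out. For USP28 virus against control 1682 passed (47.7% higher), against 921 with library totals alone (66.4% higher), 926 with no filter, 3875 in the fit of 2 groups and 368 to 4121 with 1 left out. Of the 7 genes 3 passed, against 0 with no filter and 0 to 5 with 1 left out. Hlf against control missed the threshold with the filter at RPKM 1 (adjusted p = 0.056) and library totals alone (0.068). Tests with no filter covered 30128 genes, and the fits of 2 groups held 6 libraries. The cause of the other shifts was not tested.

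With the replicate number as a block, 0 genes passed for USP28 virus against null virus, and the block moved neither other count by over 1.5 times. Same-numbered samples showed no sign of pairing over all genes: their deviations from the group means correlated at -0.0291 to 0.0601. Such a correlation cannot show whether the design was paired or whether a few genes varied together. Of the 7 genes the block changed the call of Hlf against control (adjusted p = 0.077) and no other.

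The log2 ratio of Dbp to Nfil3 ranged, with 1 library left out, from -0.09 to 2.05 for null virus against control, 1.08 to 2.49 for USP28 virus against null virus and 1.61 to 3.75 for USP28 virus against control. That of Bhlhe40 to Bhlhe41 ranged from 0.23 to 0.49, from -0.44 to -0.15 and from -0.07 to 0.15 in the same order. Every value of the 7 genes rested on at least 61 reads.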
